A study of Mus musculus with 6 samples.

Results

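Growth plate cartilage and interdigital tissue of control mouse embryos were compared gene by gene on 2 arrays, 1 of each tissue, out of 6 arrays in the series. The arrays were chosen by their titles, which name growth plate chondrocyte controls and interdigital tissue controls. Both tissues came from wild-type embryos on a C57BL/6 background at the embryonic stage E14.5. Autopods, the hand and foot plates of the limb, of 2 control embryos were frozen and sectioned, and the cells were taken by laser-capture microdissection, in which a laser cuts chosen cells out of a section. The sources used here do not say how many of those embryos, or how many cells, each array drew on. The captured RNA was copied to cDNA and amplified by PCR with a commercial procedure (SuperAmp) whose steps are not disclosed, and 250 ng of product carried the dye Cy3. The other arrays held control interzone, the cell band between future skeletal elements, and the same 3 tissues of Tgfbr2Prx1KO mutants, a name that stands for loss of Tgfbr2, which encodes the type II receptor of TGF-beta, through Prx1-driven recombination in limb mesenchyme. With 1 array per tissue there was no replicate, so no difference below has an error, a test or a p-value.

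The growth plate of a limb at this stage is young cartilage whose cells, chondrocytes, are driven by the transcription factors Sox9, Sox5 and Sox6 and secrete a matrix of type II, IX and XI collagen and the proteoglycan aggrecan. Cells that mature into hypertrophic chondrocytes switch on Ihh and then Col10a1. The interdigital tissue is undifferentiated mesenchyme between the digits that uses retinoic acid and BMP signals and dies by apoptosis as the digits separate, and blood vessels run through it while cartilage has none.

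A gene's level is given as the log2 processed signal minus the 75th percentile of its array, so that 0 is that percentile, and a difference is the growth plate level minus the interdigital level on the log2 scale. Of 19498 genes with a probe, 16464 carried the scanner output's mark for signal well above background on both arrays. The growth plate array had 72.3% of its spots well above background, the lowest share of the 6 arrays, and the interdigital array had 88.3%, the highest. Another 1522 genes were well above background on the interdigital array only and 114 on the growth plate array only. Of those 1522 genes, 564 (37.1%) had a representative probe well above background on all 5 other arrays. The share of genes of the interdigital array with no probe above background on the growth plate array was 27.4% below an interdigital level of -4, 5.41% from -2 to 0 and 0.178% from 2 to 4. For such genes a fold is given as a bound, the level on the brighter array over the dimmest level that still counted as well above background on the dimmer array, or over the gene's own level there where that was higher. A gene with several probes is represented by 1 of them, and the other probes are named where they disagree. Repeated spots of 1 probe differed by a median SD of 0.089 on the growth plate array and 0.072 on the interdigital array, which covers spotting and scanning only and not capture or amplification.

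Of the 16464 genes, 4076 (24.8%) were at least 2-fold higher on the growth plate array and 4102 (24.9%) at least 2-fold lower. These 2 shares are the background for each list count below. At least 4-fold, 1563 (9.49%) were higher and 2362 (14.3%) lower. The median difference was 0.15 and the SD over genes was 1.94. The split between higher and lower depended on the scaling: 49.8% of the genes past 2-fold were higher with the 75th percentile, 33.7% with that percentile taken over probes detected on all arrays, 59.0% after centring on the median gene, 66.7% after quantile normalization and 85.2% in the deposited table, where the median difference of all genes was 1.61. Of the 45 gene lists used, 15 had a median that kept its sign under each alternative. Of the 21 list medians below 0, 20 were above 0 in the deposited scaling, with endothelium the exception. The difference also changed with level: the median was -0.73 for the 3557 genes with a mean level of -4 to -2, 0.59 for the 4199 genes from 0 to 2, and 0.75 for the 337 genes above 4. Among genes with 2 or more measured probes, every probe pointed the same way for 688 of 1612 genes (42.7%) at least 2-fold higher and for 919 of 1482 (62.0%) at least 2-fold lower. The growth plate array had the highest level of the 6 arrays for 3437 (84.3%) of the higher genes and the lowest level for 2646 (64.5%) of the lower genes.

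**Figure D1:**
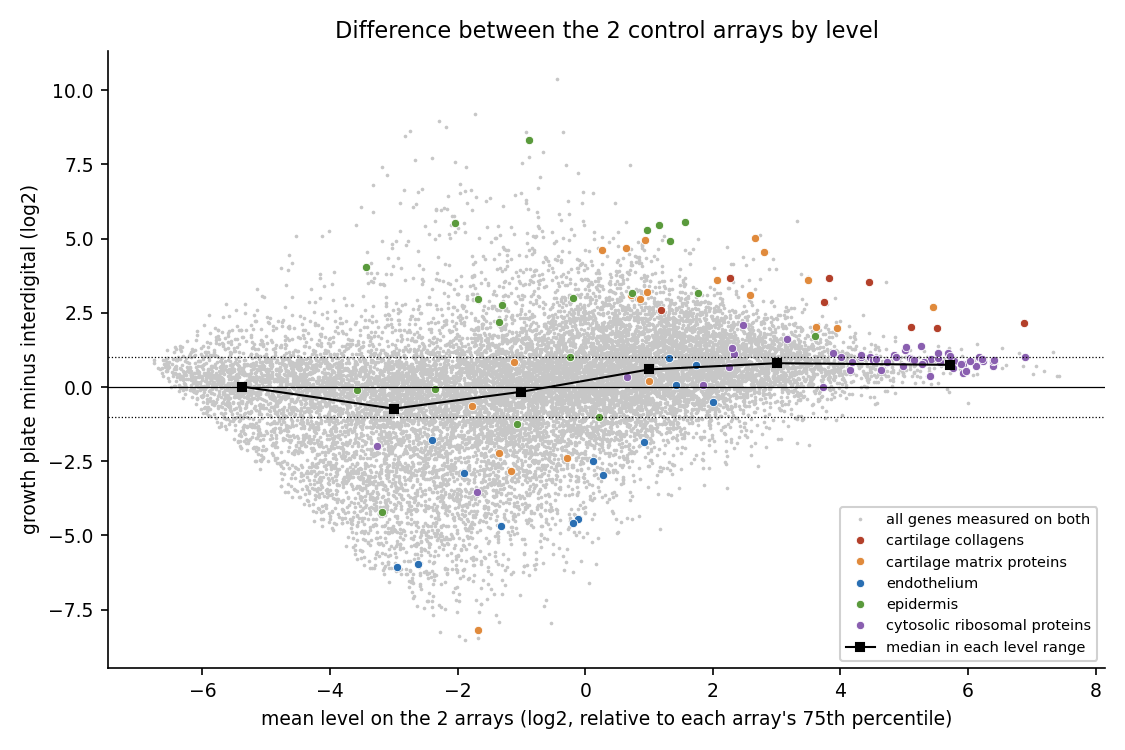
Each dot is 1 of the 16464 genes, with the mean level on both control arrays on the x axis and the growth plate minus interdigital difference on the y axis, both log2; dotted lines mark 2-fold and black squares the median in each of 6 level ranges. The 8 cartilage collagens lie above the line of medians and most endothelial genes lie below it. Ribosomal protein genes have a median difference of 0.90 and range from -3.54 to 2.08.

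The cartilage collagens were all higher on the growth plate array. Each of the 8 genes measured, against 24.8% of all genes, was at least 2-fold higher, with a list median of 2.74, or 2.59 above the all-gene median. Col2a1, the chain of the main cartilage collagen and the marker of the tissue, had a level of 7.96 on the growth plate array and 5.81 on the interdigital array, a 4.45-fold difference that its 3 probes shared in direction. Its signal on the interdigital array was thus well above background too. The type IX chains form a surface coat on type II fibrils, and Col9a1 had levels of 5.65 and 1.98 (12.7-fold), Col9a3 of 6.22 and 2.68 (11.6-fold) and Col9a2 of 6.12 and 4.09 (4.09-fold). Type XI collagen nucleates those fibrils. Its chain Col11a2 had levels of 4.10 and 0.45 (12.6-fold), and Col11a1 of 5.18 and 2.31 (7.30-fold), with 2 of 3 Col11a1 probes higher. Col27a1, a fibrillar collagen of cartilage, was 3.99-fold higher, and Col10a1, the collagen of hypertrophic cartilage, 6.10-fold. All 8 had their highest level of the 6 arrays on the control growth plate array. The same held for 84.3% of all genes at least 2-fold higher there. The control interzone array, captured beside the growth plate, lay between the control pair for 7 of the 8 collagens. Only its Col10a1 level of -0.52 was below the interdigital level of -0.11. In bulk tissue fewer cells of a type and less RNA per cell cannot be told apart, here and below.

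Non-collagen matrix proteins of cartilage followed for 14 of 21 measured genes, with 4 at least 2-fold lower and a list median of 2.96. Matn1, which bridges collagen fibrils and proteoglycans in cartilage, had a level of 5.16 on the growth plate array and 0.15 on the interdigital array (32.3-fold). Its relative Matn3 had levels of 3.41 and -1.53 (30.7-fold). Cnmd, an inhibitor of blood vessel growth made by chondrocytes, had 5.07 and 0.54 (23.1-fold). The aggregate that gives cartilage its stiffness is built of aggrecan, held on hyaluronan by a link protein. Acan, the aggrecan gene, had levels of 5.31 and 1.69 (12.3-fold), and the link protein gene Hapln1 had 3.87 and 0.26 (12.3-fold). Frzb, a secreted Wnt antagonist of cartilage, was 25.4-fold higher, the chondrocyte gene Scrg1 24.3-fold, the small leucine-rich proteoglycan gene Epyc 8.65-fold, Cytl1 8.52-fold, Snorc 7.79-fold and Comp, a pentameric glycoprotein that binds collagen, 6.55-fold. The 4 genes on the other side were Matn2 (292-fold lower), a matrilin of other connective tissues, Vit (7.13-fold), the collagen-binding proteoglycan gene Fmod (5.27-fold) and the Wnt inhibitor gene Wif1 (4.66-fold). Matn2 had levels between 1.70 and 2.80 on the 5 other arrays and -5.78 on the growth plate control array alone.

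**Figure D2:**
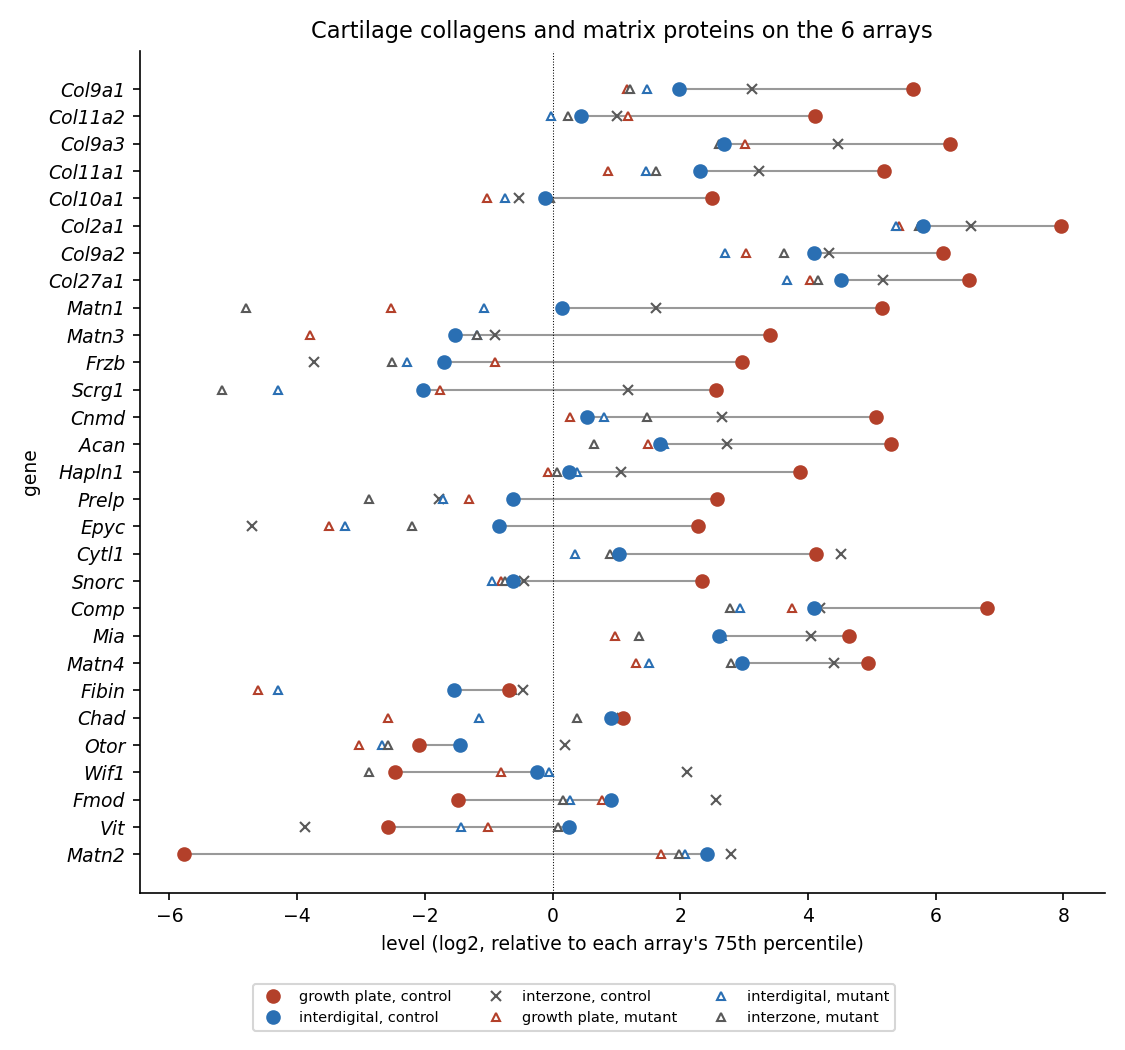
Levels (x axis, log2 relative to each array's 75th percentile) of the 8 cartilage collagens and 21 matrix protein genes (y axis), with filled red circles for the control growth plate, filled blue circles for the control interdigital tissue, crosses for control interzone and open triangles for the 3 mutant arrays; grey lines join the control pair. The red circles lie farthest right for all 8 collagens and for 14 of the matrix genes, and Matn2 has its red circle far left of every other mark. Of all genes at least 2-fold higher on the control growth plate array, 84.3% had their highest level there.

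Chondrogenic transcription factor genes numbered 17, of which 8 were higher by 2-fold or more and 3 lower (median 0.66). Sox9, the master regulator of chondrocytes, had a level of 3.11 on the growth plate array and 0.69 on the interdigital array (5.37-fold), with all 3 probes higher. Its partner Sox5 had levels of -0.43 and -3.55 (8.73-fold), and Sox6 had 0.92 and -0.90 (3.53-fold), though only 3 of the 5 measured Sox6 probes were higher. Trps1, a GATA-type repressor of chondrocytes and joints, was 9.85-fold higher, and Barx2, a homeobox gene of limb cartilage, 42.2-fold. The forkhead genes Foxa2 and Foxa3, which act in chondrocyte hypertrophy, had levels of 0.83 and 3.05 on the growth plate array and -5.18 and -3.14 on the interdigital array, or 64.2-fold and 73.3-fold higher. The 3 genes lower were Pax9 (15.4-fold), Nkx3-2 (4.02-fold), a repressor of chondrocyte maturation, and Runx3 (2.98-fold).

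Hypertrophy and mineralization genes were higher for 8 of 14 measured genes and lower for 3, with a median of 1.80. Ihh, the hedgehog ligand of prehypertrophic chondrocytes, had a level of 3.40 on the growth plate array and -0.27 on the interdigital array (12.7-fold). Pth1r, the receptor through which parathyroid hormone-related protein slows hypertrophy, had 5.19 and 2.38 (7.01-fold). Panx3, a channel protein of prehypertrophic cells, was 12.3-fold higher, the matrix phosphatase gene Phospho1 11.9-fold, Spp1, the gene of osteopontin, 8.12-fold, the growth-restraining receptor gene Fgfr3 5.88-fold with 2 of 3 probes and Bmp6 5.19-fold. Other genes of the list differed less or were lower. Mmp13, the collagenase of terminal chondrocytes, had levels of -5.12 and -4.71, the bone transcription factor gene Sp7 had 1.58 and 1.21, and Runx2 was 2.34-fold lower with 1 of its 3 probes higher. Ibsp, a bone sialoprotein gene, was not well above background on the growth plate array and at least 36.2-fold lower there. Vegfa, the vessel growth factor gene, was 159-fold lower by its representative probe, but 1 of its 3 measured probes was higher.

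Genes that supply and build sulfated sugar chains for proteoglycans were higher for 10 of 23 and lower for 6 (median 0.64). Chst11, a chondroitin sulfotransferase, was 7.44-fold higher with 2 of 3 probes, Slc35d1, which carries sugar nucleotides into the Golgi, 5.79-fold, and the chondroitin polymerizing enzyme genes Chpf and Chsy1 5.60-fold and 5.15-fold. Ugdh, which makes the glucuronic acid donor, was 4.68-fold higher. In contrast the sulfate transporter gene Slc26a2 had levels of -5.51 and -4.30, and Papss2, which makes the sulfate donor, 0.13 and -0.20. Collagen folding and secretion genes were higher for 13 of 29 and lower for 2 (median 0.91). The lysyl hydroxylase gene Plod2 was 4.98-fold higher, its relative Plod3 5.89-fold with 1 of 2 probes, the prolyl hydroxylase gene P4ha2 5.21-fold, and Fkbp10, a collagen chaperone, 6.50-fold. Serpinh1, the collagen chaperone HSP47, had a difference of 1.05, where genes with a mean level above 4 had a median of 0.75.

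Ribosomal protein and proteasome genes were shifted to the same side. Respiratory chain subunits, also general cell machinery, had a median of 0.20, near the all-gene median of 0.15. Of all genes with a mean level of 2 to 4, 40.8% were at least 2-fold higher, with a median of 0.80. Above a mean level of 4, 25.8% were higher, with a median of 0.75. Cytosolic ribosomal protein genes had a median difference of 0.90 over 55 genes, with 19 past 2-fold higher and 2 lower, and proteasome subunit genes 0.95 over 31, with 14 higher and 4 lower. After quantile normalization, which gives the arrays 1 distribution, the ribosomal median lay -0.39 from the all-gene median, the proteasome median -0.23 and the collagen folding median -0.30, against 1.67 for the cartilage collagens. Both complexes had members far from the rest on the growth plate array: Psmc2, an ATPase of the proteasome, had levels of -5.97 and 1.44 (170.1-fold lower), Psmd1 of -5.02 and 1.76, and Rpl27 of -3.47 and 0.069. Glycolysis and hypoxia genes were higher for 18 of 29 and lower for 4 (median 1.24). Aldoc, an aldolase, was 22.5-fold higher, the glucose transporter gene Slc2a1 7.70-fold, the carbonic anhydrase gene Car12 8.16-fold, Pgk1 5.84-fold and Ldha, the lactate-forming enzyme, 3.87-fold. For 14 of these 29 genes the interdigital control array had the lowest level of the 6. The hypoxia-induced genes Car9 and Egln3 went the other way, 8.91-fold and 3.96-fold lower.

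More interdigital genes were lower on the growth plate array than higher. Of 24 measured genes of the interdigital mesenchyme list, 12 were at least 2-fold lower, against 24.9% of all genes, and 5 higher, with a median of -1.07, or -1.22 from the all-gene median; in the deposited scaling the list median was 0.39 beside an all-gene median of 1.61. Of the 7 markers of this tissue, 5 were at least 2-fold lower on the growth plate array and Bmp7 was 2.18-fold higher. Hoxd13, a homeobox gene of the whole digit plate, had levels of 3.24 and 3.21, but only 1 of its 2 probes was higher. Over the 7 alternative settings the Hoxd13 difference ranged from -2.08 to 1.49. Msx1, a homeobox gene induced by BMP, had a level of -2.11 on the growth plate array and 0.64 on the interdigital array (6.70-fold lower, both probes). The growth factor gene Fgf18 had -4.43 and -0.17 (19.1-fold), Bmp2, a ligand that promotes interdigital cell death, -5.23 and -1.20 (16.4-fold), and Bmp4 0.71 and 2.28 (2.97-fold). Tbx3 was not well above background on the growth plate array and at least 15.7-fold lower. The 5 higher genes were Tgm2, a transglutaminase (34.3-fold, with 1 of 3 probes higher), Irx5 (12.3-fold), Rarg (3.67-fold), Bmp7 and Jag2 (2.18-fold).

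Retinoic acid genes were lower for 8 of 17 and higher for 3 (median -0.73, 0.73 in the deposited scaling). The receptor gene Rarb, itself induced by retinoic acid, had a level of -5.07 on the growth plate array and 0.11 on the interdigital array, 36.1-fold lower by both of its probes. Synthesis runs through Rdh10, which had levels of -2.02 and -0.086 (3.82-fold lower), and Aldh1a2, which had -3.66 and -2.12 (2.91-fold lower). Cyp26a1, an enzyme that breaks retinoic acid down and is induced by it, was not well above background on the growth plate array and at least 12.6-fold lower. Cyp26b1, its relative, had -0.96 and -1.06. The receptor genes were split: Rara was 4.05-fold lower, while Rxrb, Rxrg and Rarg were 5.99-fold, 4.33-fold and 3.67-fold higher, and Rarg is known as the retinoic acid receptor of cartilage. Rarb and Cyp26a1 are classic targets of retinoic acid, and their promoters are shown for the repeat they hold, from RefSeq on build GRCm38.p6, as the 250 bases before the start, with the direct repeat GTTCA, any 6 bases, GTTCA, the letters of a retinoic acid response element, in capitals (found on either strand). The Rarb window is chr14:16575477-16575726 on the minus strand and the Cyp26a1 window chr19:37697558-37697807 on the plus strand.
Rarb: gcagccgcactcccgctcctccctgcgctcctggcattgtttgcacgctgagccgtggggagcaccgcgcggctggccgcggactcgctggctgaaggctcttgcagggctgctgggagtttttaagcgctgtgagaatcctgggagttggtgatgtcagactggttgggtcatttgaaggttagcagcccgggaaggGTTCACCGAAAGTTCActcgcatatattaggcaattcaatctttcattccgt
Cyp26a1: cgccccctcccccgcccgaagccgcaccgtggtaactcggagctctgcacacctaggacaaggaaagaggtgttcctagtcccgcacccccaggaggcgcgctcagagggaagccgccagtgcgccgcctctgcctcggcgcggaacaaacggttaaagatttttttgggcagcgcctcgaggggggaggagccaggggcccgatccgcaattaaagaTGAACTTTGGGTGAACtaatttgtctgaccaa
The repeat began 52 bases before the Rarb start and, on the opposite strand, 32 bases before the Cyp26a1 start. It was in the windows of 2 of the 16 retinoic acid genes that have one, and of 21 (0.0777%) of 27025 genes in the promoter table. The letters AACAAT, a core bound by SOX proteins, were in the windows of 2 of 25 genes (8.00%) of both cartilage matrix lists and of 10.9% of all genes, on either strand. A match is a description of the letters only.

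**Figure D3:**
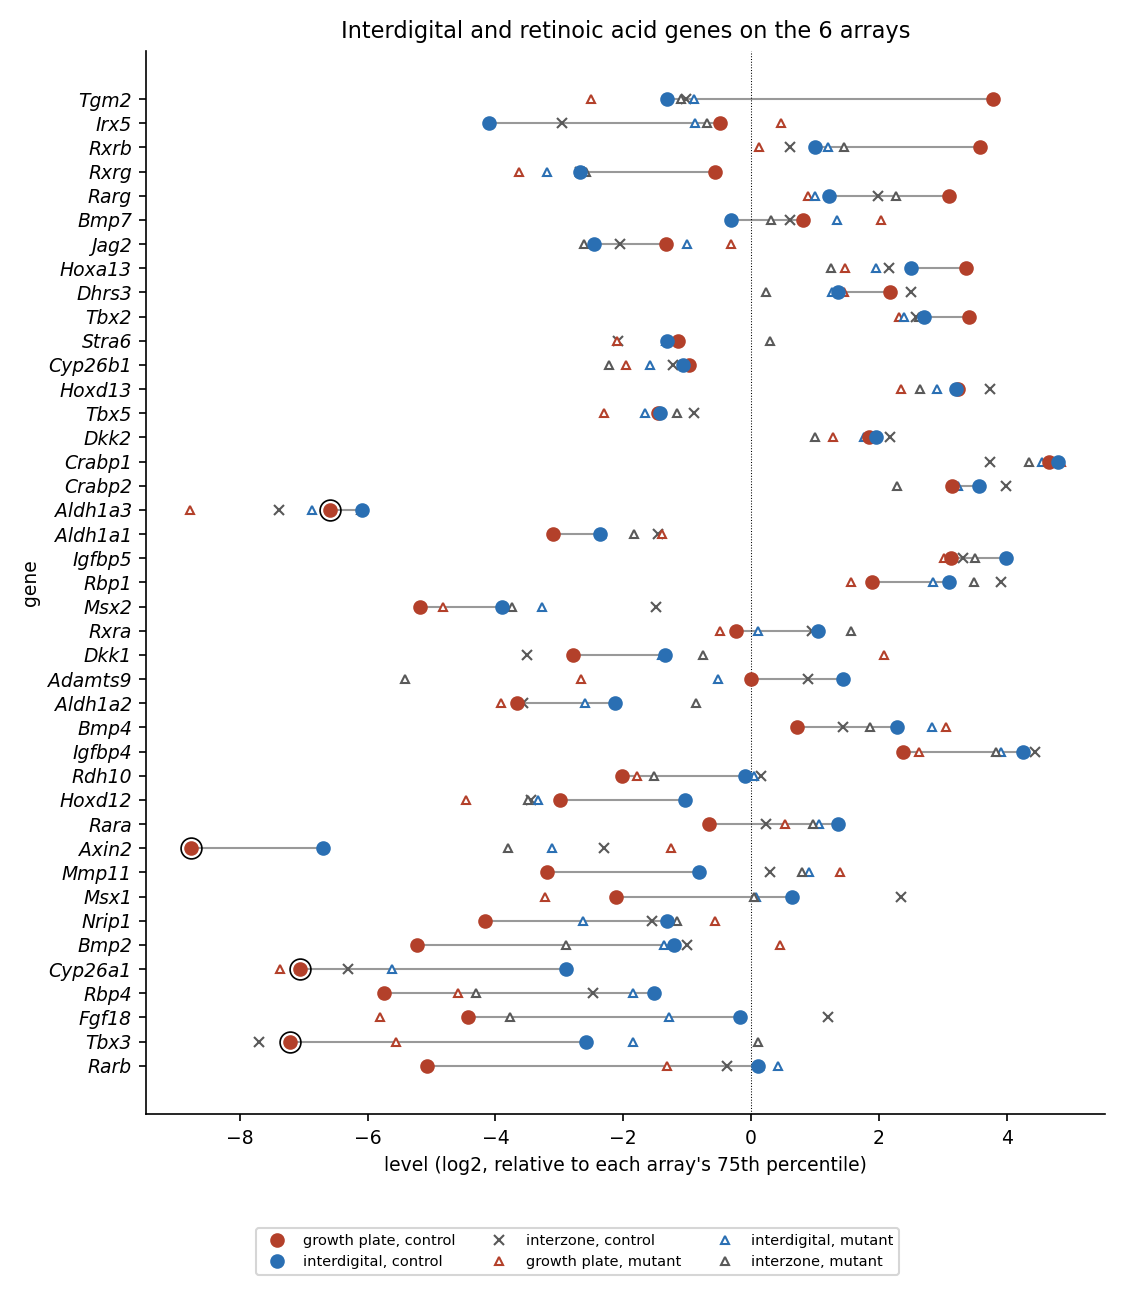
Levels (x axis, log2 relative to each array's 75th percentile) of interdigital mesenchyme and retinoic acid genes (y axis), with marks as in the plot of cartilage genes and a ring around growth plate control values that were not well above background. The red circle lies left of the blue one in the lower part of the plot, most widely for Rarb at -5.07 against 0.11, and right of it for Tgm2 at 3.79 against -1.31.

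Limb patterning genes were split. Of 37 homeobox and other transcription factor genes of limb mesenchyme, 10 were at least 2-fold higher and 13 lower (median -0.25, 1.21 in the deposited scaling). Of all genes, 24.8% were higher and 24.9% lower. Shox2, which drives growth of proximal limb bones, had a level of 0.52 on the growth plate array and -6.89 on the interdigital array (171-fold higher, 1 probe). The latter lay near the dimmest level well above background there, -7.22. Hand2, a posterior limb factor, was 6.84-fold and the dorsal factor gene Lmx1b 7.29-fold higher. On the lower side were the hindlimb gene Tbx4 (30.6-fold), Dlx5 (23.4-fold), Meox2 (15.5-fold), Zeb2 (12.7-fold, 3 probes) and the distal factor gene Lhx2 (6.55-fold). Posterior Hox genes were higher for 2 of 13 and lower for 3: Hoxd10, Hoxd11 and Hoxd12 had differences of -3.28, -1.37 and -1.95, Hoxc13 of 1.14, and Hoxc10 of 4.64, the last with 1 of 2 probes higher. Cell death genes did not exceed those all-gene shares, with 5 of 25 higher and 5 lower. Their median was 0.31, and -0.13 with the percentile over probes detected on all arrays. The apoptosome gene Apaf1 was 7.06-fold higher by both probes, while the BH3-only gene Pmaip1 was 15.8-fold and Casp2 7.59-fold lower.

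Matrix of general connective tissue was lower on the growth plate array for 14 of 33 genes and higher for 3 (median -0.68, and 0.78 in the deposited scaling). Microfibril and elastic fibre genes were among them: Fbn1 had levels of 0.48 and 3.22 (6.69-fold lower), Mfap2 of 1.38 and 4.04 (6.30-fold), and Fbln1 of -4.47 and 0.46 (30.4-fold), each by 2 probes. The collagen cross-linking enzyme gene Lox was 12.9-fold and Col14a1 38.8-fold lower. The main chains of connective tissue collagen differed less by their representative probes: Col1a1 had 5.72 and 6.26, Col1a2 had 5.60 and 5.46, and Col3a1 had 5.64 and 5.70. Over the 7 alternative settings the Col3a1 difference ranged from -2.81 to 1.40. Matrix protease and inhibitor genes were lower for 14 of 27 and higher for 3 (median -1.26, 0.20 in the deposited scaling). Timp3, a protease inhibitor bound to matrix, had levels of -3.24 and 3.36 (96.8-fold lower), Adamts1 of -5.09 and 1.04 (70.3-fold, both probes) and the gelatinase gene Mmp9 of -3.46 and 0.67 (17.5-fold). The 3 higher genes were Adamts3, a procollagen II processing enzyme (6.83-fold, with 1 of 3 probes higher), the aggrecanase gene Adamts5 (5.06-fold) and Mmp2 (2.78-fold).

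Signalling genes were split within most lists. In the TGF-beta pathway, 10 of 23 components were lower and 2 higher (median -0.69, 0.77 in the deposited scaling). Tgfbr2, the type II receptor, had levels of -2.42 and 2.49 (30.0-fold lower, both probes) and the ligand gene Tgfb3 -1.08 and 2.20 (9.69-fold lower), while Smad4, the shared signal carrier, was 4.87-fold higher. Of genes known to respond to TGF-beta, 6 of 17 were higher and 1, Timp3, lower (median 0.51), with Tgfbi 4.56-fold and Ccn2 3.50-fold higher. Among all genes with a mean level of 0 to 2, 37.6% were higher and 12.5% lower, with a median of 0.59. Relative to the all-gene median, the responsive list ranged from -0.35 to 0.47 over the 7 alternatives. In the BMP and GDF list 7 of 31 were higher and 10 lower, with the receptor gene Bmpr1a 39.5-fold lower, Bmp3 21.7-fold lower and the activin receptor gene Acvr2b 24.3-fold higher, while the targets Id1, Id2 and Id3 had differences of 0.064, -0.045 and 0.52. Hedgehog genes were higher for 3 of 15 and lower for 6. There the ligand gene Ihh was higher, its antagonist gene Hhip had levels of -4.75 and 0.36 (34.5-fold lower), and the targets Ptch1 and Gli1 had differences of -0.72 and 0.20. Pthlh, the ligand of Pth1r, was 7.56-fold lower.

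FGF genes were higher for 8 of 23 and lower for 7. The ligand genes Fgf9 and Fgf7 were 22.1-fold and 13.9-fold lower and Fgf10 at least 31.1-fold lower, while Fgfr3 was higher as given and the feedback phosphatase gene Dusp6 3.87-fold higher. In the Wnt list 15 of 49 were higher and 11 lower (median 0.18, -0.26 with the percentile over probes detected on all arrays). The antagonist gene Sfrp5 had levels of 2.19 and -6.78 (502-fold higher), and the receptor gene Fzd9 and the nuclear effector genes Tcf7 and Lef1 were 29.6-fold, 21.3-fold (1 of 2 probes) and 10.7-fold higher. On the lower side were the antagonist gene Sostdc1 (24.5-fold), the potentiator gene Rspo3 (9.18-fold) and Sfrp1 (8.34-fold). Notch genes were lower for 10 of 20 and higher for 3 (median -0.97, 0.49 in the deposited scaling). The ligand gene Jag1 had levels of -4.85 and 1.64 (90.0-fold lower), and the target gene Hes1 of -4.52 and 2.48 (128-fold lower). Among IGF genes 2 of 17 were higher and 5 lower, with Igf1 10.5-fold lower by both probes and Igf2, the fetal growth factor gene, at 6.96 and 6.22.

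Markers of other cell types differed between the arrays as well. Endothelial genes were lower for 10 of 14 and higher for none, with a median of -2.69, and 4 more were well above background on the interdigital array only. Pecam1, an adhesion molecule of vessel walls, had levels of -2.35 and 2.11 (22.0-fold lower), Cdh5 of -1.11 and 1.37 (5.58-fold, both probes) and Emcn of -5.97 and 0.081 (66.2-fold), and the receptor genes Tie1, Tek and Kdr were at least 106-fold, 69.5-fold and 44.1-fold lower. Over the 7 alternative settings this list's median ranged from -3.13 to -1.23, on the lower side each time. Plvap, Eng and Vwf did not share it in the main scaling, with differences of 0.068, 0.73 and 0.97. The Vwf difference did not keep its sign over the alternatives and ranged from -1.60 to 2.43. Macrophage and leukocyte genes were lower for 11 of 19 and higher for 4 (median -1.03, 0.43 in the deposited scaling), with Tyrobp 62.8-fold, Fcer1g 71.0-fold and Csf1r 7.32-fold lower and Pf4 4.89-fold and Laptm5 5.26-fold higher. Summed on the linear scale, in units of each array's 75th percentile, the measured endothelial genes came to 16.5 on the growth plate array and 35.4 on the interdigital array, and the macrophage and leukocyte genes to 27.8 and 27.0. The share that the growth plate array's low detection had in these lower lists was not tested.

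Epidermal genes were higher on the growth plate array for 15 of 20 measured genes and lower for 3 (median 2.99). The shares over all genes were 24.8% higher and 24.9% lower, for this list and the next 2. The desmosome gene Dsp had levels of 3.28 and -5.03 (317-fold), the basal keratin genes Krt15 and Krt14 of 4.35 and -1.20, and 3.35 and 0.17, and the suprabasal keratin gene Krt10 of 3.88 and -1.56. The interdigital control array had the lowest level of the 6 for 11 of the 20 genes, and the growth plate control array the highest for 1. The median levels of these genes were -0.88, 0.50 and -1.62 on the control interzone, growth plate and interdigital arrays and between 2.29 and 2.82 on the 3 mutant arrays. Their summed level was 118 on the growth plate array and 14.51 on the interdigital array. The adhesion gene Cdh1 was not well above background on either control array. Whether captured skin cells had a part in this was not tested. Erythroid genes were higher for 7 of 12 and lower for 3 (median 1.13), with the haemoglobin genes Hba-a1 and Hbb-bt at 7.93 and 6.74, and 7.20 and 5.88. The summed level of the erythroid list was 408 and 173, most of it from Hba-a1 and Hbb-bt. The median levels of the list were -0.24 on the growth plate array and -0.13 on the interdigital array. Near-identical globin copies may share probe signal. Skeletal muscle genes were higher for 11 of 23 and lower for 3 (median 0.79), with the myogenic factor gene Myog 12.6-fold and Tnnt2 12.2-fold higher (Tnnt2 by 1 of 2 probes), the fast fibre gene Mylpf 5.97-fold higher and Myod1 at 4.27 and 3.48. The muscle list summed to 90.2 and 36.3.

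Markers of the tissues that border the captured fields were split. Tendon and ligament genes were higher for 4 of 14 and lower for 5: Kera and Tnmd were 25.5-fold and 8.17-fold higher, and Scx, the factor that marks tendon progenitors, was 2.15-fold lower. Osteoblast and perichondrium genes were higher for 3 of 13 and lower for 5, and Dmp1 was not well above background on the interdigital array and at least 229.8-fold higher on the growth plate array. Interzone and joint genes were higher for 5 of 19 and lower for 5. Gdf5, the ligand that marks the interzone, had levels of 4.33 on the control interzone array, 2.17 on the growth plate array and 1.20 on the interdigital array, and Osr2 had 2.83, 2.21 and 0.35. Osteoclast genes were higher for 1 of 9 and lower for 4, with the cytokine gene Tnfsf11 27.9-fold lower. Nerve and Schwann cell genes were higher for 2 of 15 and lower for 5, and the axon growth gene Gap43 was at least 177-fold lower. Xist, the RNA of the inactive X chromosome, had levels of 3.97 and 4.14, while the Y-linked genes Uty, Kdm5d and Eif2s3y were not well above background on either array.

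**Figure D4:**
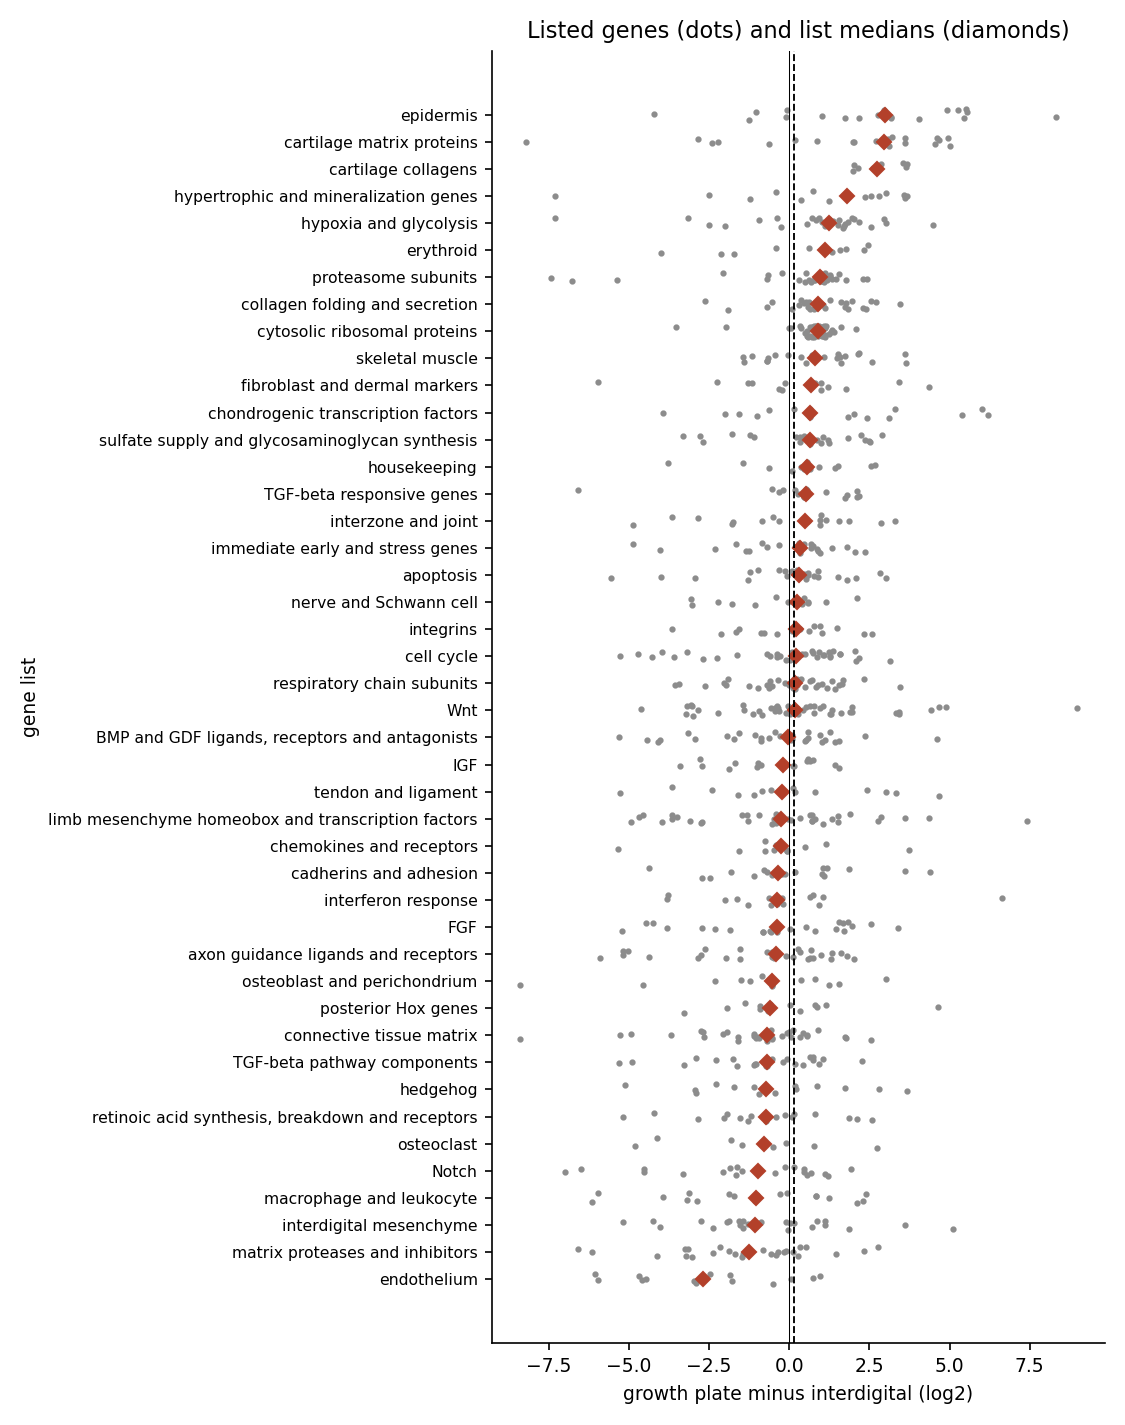
Growth plate minus interdigital difference (x axis, log2) of the listed genes measured on both arrays (dots) and the median of each list (diamonds), ordered by median along the y axis; the dashed line is the all-gene median of 0.15. Epidermis, cartilage matrix proteins and cartilage collagens lie at the top with medians of 2.99, 2.96 and 2.74, and endothelium at the bottom with -2.69.

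The remaining lists had at most 12 members past 2-fold in either direction, beside the background of 24.8% higher and 24.9% lower. Cell cycle genes were higher for 12 of 39 and lower for 9, with the replication gene Mcm7 26.1-fold lower and Birc5 4.11-fold higher, and Mki67, a proliferation marker, at 2.63 and 2.24. Respiratory chain subunits were higher for 9 of 35 and lower for 7. Integrin genes were higher for 4 of 17 and lower for 4, and Itga10, the collagen II receptor of chondrocytes, was 6.02-fold higher. Cadherin and adhesion genes were higher for 7 of 22 and lower for 5, with the gap junction gene Gjb2 21.1-fold higher and Alcam 20.7-fold lower. Axon guidance genes were higher for 6 of 30 and lower for 11, with the VEGF co-receptor gene Nrp1 36.3-fold lower by both probes. Immediate early and stress genes were higher for 4 of 23 and lower for 6, with Jun 29.4-fold lower and Hspa1a 5.21-fold higher with 3 of 4 probes. Interferon response genes were higher for 2 of 15 and lower for 5, and chemokine genes higher for 2 of 12 and lower for 2. Fibroblast and dermal markers were higher for 4 of 15 and lower for 4, with Lef1 and Ly6a (20.7-fold) on the higher side and Thy1 (4.71-fold) on the lower. Housekeeping genes were higher for 4 of 14 and lower for 2, with Actb and Gapdh at differences of 0.65 and 0.57.

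By size alone, and among genes whose brighter level was at or above its array's median, the largest difference toward the growth plate was that of Hrnr, an epidermal cornified envelope gene, with a level of 4.74 on the growth plate array and -5.64 on the interdigital array (1332-fold, both probes). The next were the ion channel gene Mcoln2 (583-fold), Sfrp5, the exporter gene Slc47a1 (437-fold), Cpeb2 (398-fold), Fbxl2 (387-fold), Plek2 (382-fold) and Frem2 (349-fold), a basement membrane protein gene of skin. Dsp, Ppp1r14a, Smim5, Slc12a8, Serpinb10, Prps2 and Mttp completed the 15, with folds down to 186. Of these 15, 3 were measured by more than 1 probe. In the mutant pair Hrnr, Slc47a1, Cpeb2, Frem2, Ppp1r14a and Serpinb10 were at least 2-fold higher too. Mcoln2 and Mttp were not well above background on the mutant growth plate array, and the rest differed by less than 2-fold. Cpeb2, Frem2 and Sfrp5 had interdigital levels of -7.06, -7.05 and -6.78, near the dimmest level well above background on that array, -7.22. Among genes not well above background on the interdigital array, the largest bounds were those of the transporter gene Slc16a14 (at least 2019.7-fold), the prostaglandin receptor gene Ptgdr (at least 472-fold), Dmp1, Kcnh7 (at least 171-fold) and Elk1 (at least 96.7-fold). None of these was well above background on the mutant growth plate array.

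Toward the interdigital array the largest differences were those of Rnf187 (365-fold lower on the growth plate array), the adaptor gene Sh2b3 (354-fold, both probes), the matrix gene Thbs2 (335-fold), Snn (304-fold, both probes), Matn2 and the vessel-remodelling ligand gene Angpt2 (247-fold). Thbs2 had levels of -6.18 and 2.21, and Angpt2 of -4.52 and 3.43. The dimmest level that counted as well above background on the growth plate array was -6.56. Snn, Nanp, Mettl2, Thbs2 and Rnf187 lay near it there, between -6.40 and -6.14. Otub1, Mettl2, Plpp1, Magt1, Rnasek, Hif1an, Nanp, Psmc2 and Dio3 completed the 15, with folds down to 167. Several of these are general cell genes, such as the deubiquitinase gene Otub1 and the oxygen-sensing hydroxylase gene Hif1an (3 probes lower). Rnf187, Sh2b3, Otub1 and Hif1an had levels of 0.61 or more on all 5 other arrays, the mutant growth plate array among them. In the mutant pair only Snn of these 15 was at least 2-fold lower (-1.25). Dio3 was also low on the control interzone array, at -4.09. Among genes not well above background on the growth plate array the largest bounds were those of Cap1, an actin regulator (at least 395-fold lower), Rchy1 (at least 393-fold), Lhfpl2 (at least 382-fold), Tet2 (at least 355-fold) and Dnajc25 (at least 308-fold).

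The mutant arrays gave the same tissue pair from other embryos, on the other slide, so genotype and slide cannot be told apart there. Over the 16069 genes measured on the 4 arrays, the mutant growth plate array was at least 2-fold higher for 12.2% and lower for 15.5%. Pearson's r between the 2 differences was 0.10 across genes, which are not independent replicates. Of 3947 genes higher in the control pair, 612 (15.5%) were at least 2-fold higher in the mutant pair and 583 at least 2-fold lower. Of 4020 genes lower in the control pair, 985 (24.5%) were at least 2-fold lower in the mutant pair and 591 at least 2-fold higher. The cartilage collagens had a median of 0.19 in the mutant pair, where only Col11a2 was at least 2-fold higher, against 2.74 in the control pair. Their median level was 5.88 on the control growth plate array and between 2.05 and 2.12 on the 3 mutant arrays. Matn1 and Matn3 had mutant differences of -1.46 and -2.61.

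At least 16-fold the same way in both pairs were 36 of the 16069 genes. The 10 genes each way with the largest smaller difference over both pairs were, on the higher side, the homeodomain-only gene Hopx (5.34 in the control pair, 5.60 in the mutant pair), Kctd4 (6.53 and 4.82), the chitinase-like gene Chil1 (6.31 and 4.54), Foxa2 (6.00 and 4.17), Psca (4.50 and 4.12), Lce1a1, Mal, Upk1b, Ccl12 and Sox6os, a noncoding RNA named for its place beside Sox6 (4.92 and 3.71). Sox6 itself had 1.82 and 3.15. On the lower side they were the matrix genes Srpx (-6.97 and -7.48) and Podn (-6.16 and -7.08), the versican-cleaving protease gene Adamts15 (-5.86 and -7.15), and the growth factor genes Fgf9 (-4.47 and -4.82) and Fgf18 (-4.25 and -4.52), with Slc22a21, Zfp811, Gimap4, Zfp658 and Gmfg. Of the 12 lower interdigital genes, 8 were also at least 2-fold lower in the mutant pair, among them Msx1 (-3.31), Aldh1a2 (-1.31) and Rarb (-1.74). Of the 14 lower protease genes 8 did so, among them Ctsk (-1.48 and -5.30) and Htra1 (-3.02 and -4.30). At least 2-fold higher in both pairs were 1 of the 8 cartilage collagens and 2 of the 14 higher cartilage matrix genes, Frzb and Scrg1. Over all genes past 2-fold in the control pair, the same held for 15.5% of those higher and 24.5% of those lower.

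**Figure D5:**
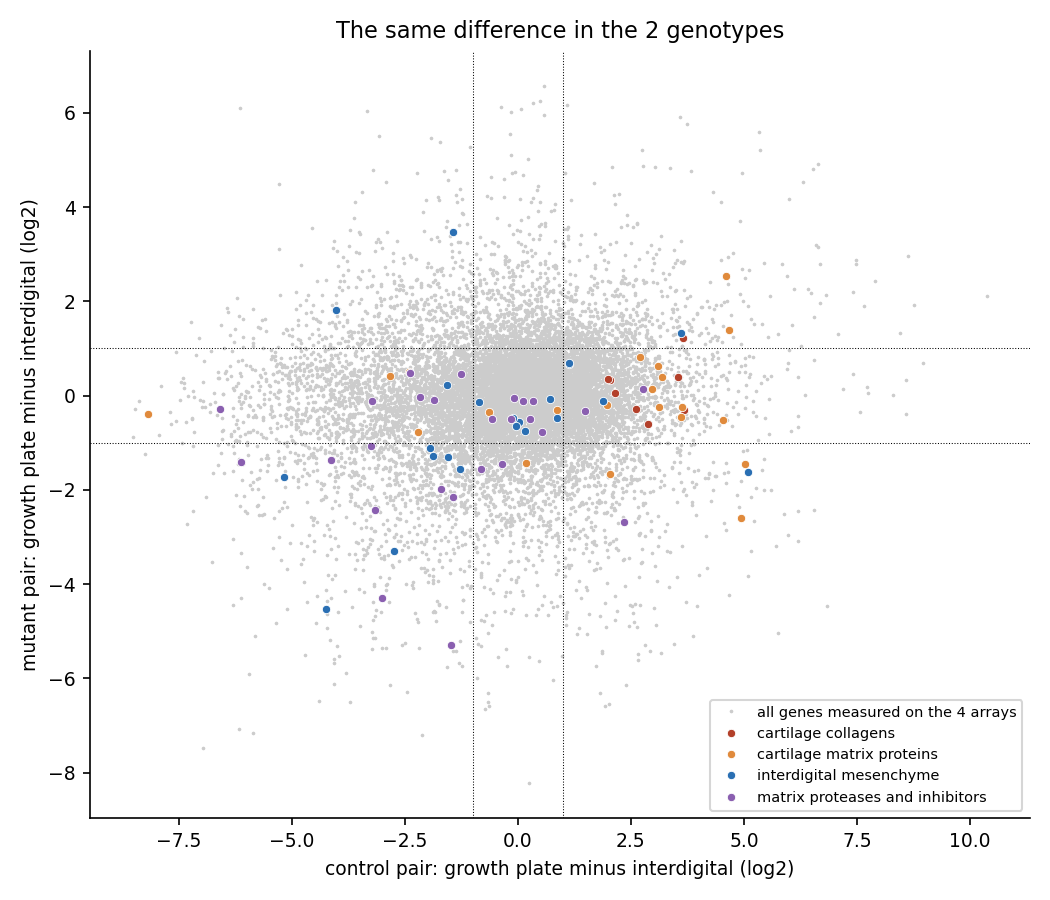
Growth plate minus interdigital difference in the control pair (x axis) and in the mutant pair (y axis), both log2, for the 16069 genes measured on the 4 arrays; dotted lines mark 2-fold. The cartilage collagens lie between 2.00 and 3.67 on the x axis and between -0.59 and 1.21 on the y axis. Of the 12 interdigital genes at least 2-fold lower on the x axis, 8 are so on the y axis, against 24.5% of all genes.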

How the data were processed

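Values came from Agilent whole-genome mouse arrays of 1 colour, 1 scanner output per tissue, made by Agilent Feature Extraction 9.5.1.1 per the submitters' processing notes. The deposited scanner output gives for each spot a processed intensity, already background-subtracted per the file headers, and a mark for signal well above background. The deposited table of processed values holds a ratio, the processed intensity over its array's median, as a match of every value within 1% showed, and it was used as an alternative only. Here the log2 of the deposited processed intensity minus each array's 75th percentile over 43379 non-control spots was used (Python 3.11.15, pandas 2.3.3, numpy 2.4.6, matplotlib 3.10.9). Alternatives used R 4.3.3 and limma 3.58.1 (normexp, offset 50), a percentile over probes detected on all arrays, quantile normalization, centring on the median gene, the mean over probes, no filter and a 4-fold threshold.

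Spots of 1 probe were averaged, and a gene was represented by its probe of highest mean level across all 6 arrays. Of 41174 probes, 23082 were named by accession, 6582 by symbol and 3073 by an older symbol through a RefSeq gene table, and 8437 stayed unnamed. A gene counted as measured when its probe was well above background on both arrays, as higher or lower from 2-fold. Genes named by rule were the 15 largest differences each way whose brighter level was at or above its array's median of detected probes and whose other probes agreed, the 5 largest bounds each way, the 10 each way with the largest smaller difference over both genotypes, and any member of 45 gene lists. Members and lists were chosen with earlier results of these data known. Genes without a proper symbol were left out of the rule. Motifs were searched as exact letters on both strands of RefSeq promoter windows. The script was tested on simulated data. Descriptions of 5 of the 6 samples, the growth plate control among them, name irradiated human blood, which the titles, organism and source fields contradict, and the titles were used. The deposited table held a value column for each of the 6 samples and none of any other sample (0 columns). The 2 arrays limit the precision, since neither has a replicate.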

Additional observations from a re-analysis of the deposited data

Results flagged for a closer look

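Of 223 named genes measured on the control and mutant pairs, 26 were at least 2-fold apart in the control pair and at least 2-fold apart the other way in the mutant pair. They were 12.9% of the 201 named genes past 2-fold in the control pair, and over all genes the same held for 1174 of 7967 (14.7%), so the share of named genes was near the background. Each pair is 1 array against 1, so the difference between genotypes was not tested, and the mutant pair lay on another slide. Differences are growth plate minus interdigital, in log2.

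Cartilage genes were among them. The chondrocyte factor genes Sox9, Sox5 and Barx2 had control differences of 2.42, 3.13 and 5.40 and mutant differences of -1.51, -1.58 and -1.58. The matrilin genes Matn1 and Matn3 had 5.02 and 4.94 in the control and -1.46 and -2.61 in the mutant pair. Of the genes that build sulfated sugar chains, the chondroitin polymerizing gene Chpf had 2.49 and -1.02, and the sulfate transporter gene Slc26a2 had -1.22 and 3.85. The aggrecanase gene Adamts5 had 2.34 and -2.69.

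Several genes of the interdigital and limb lists also had opposite signs: the ligand gene Bmp2 (-4.03 and 1.81), Tgm2 (5.10 and -1.61), Hand2 (2.77 and -2.28), Zeb2 (-3.67 and 1.21) and the receptor gene Rxrb (2.58 and -1.08). Of TGF-beta responsive genes, Tgfbi had 2.19 and -4.57 and Ccn2 had 1.81 and -1.61. Tendon genes did likewise, with Kera at 4.67 and -4.23 and Tnmd at 3.03 and -3.61. The muscle factor gene Myog had 3.65 and -2.03, the leukocyte gene Laptm5 2.39 and -6.14, Ly6a 4.37 and -1.71, the osteoclast cytokine gene Tnfsf11 -4.80 and 1.11, and the Wnt genes Fzd9 and Rspo3 4.89 and -3.20 in the control against -2.37 and 1.30 in the mutant pair. The cell death genes Casp2 and Pmaip1 had -2.92 and -3.99 against 1.63 and 1.11, and the replication gene Mcm7 -4.71 against 1.02.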

How the results depend on the processing

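Of 228 named genes measured on both arrays, 178 kept their direction and their side of 2-fold under each of the 7 alternatives that change the values, and 4 of 45 list medians did: cartilage collagens, cartilage matrix proteins, endothelium and epidermis. With the percentile over probes detected on all arrays, 2670 genes were higher and the all-gene median was -0.29. With the deposited ratios, 10851 genes were higher, 1887 lower and the median was 1.61, since each array was divided by its own median spot. The all-gene median was 0.45 after quantile normalization, 0.39 after centring on the median gene and -0.0069 with the mean over probes. A 4-fold threshold left 1563 genes higher and 2362 lower. The deposited table turned the sign of 20 list medians, of which 3 were past 2-fold, interdigital mesenchyme (0.39), macrophage and leukocyte (0.43) and matrix proteases and inhibitors (0.20), and of 10 genes, of which 4 were past 2-fold, Hoxd11 (0.086), Runx2 (0.23), Scx (0.36) and Slc26a2 (0.24). Slc26a2 also turned after quantile normalization (0.96). Relative to the all-gene median, the interdigital list lay between -1.49 and -0.86 over the 7 alternatives, the protease list between -1.51 and -1.08, the endothelial list between -3.06 and -2.62 and the cartilage collagens between 1.67 and 2.80. No paired analysis was possible because each tissue had 1 array and the labels give no replicate numbers, and for the same reason no replicate could be left out. Lower signal over background on the growth plate array limits what can be said of genes lower there.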

Other observations

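With the 75th percentile scaling, above a mean level of 4 none of 337 genes was at least 2-fold lower, while 25.8% were higher. Among the genes at least 2-fold lower, the interdigital control array had the highest level of the 6 for 1055 of 4102 (25.7%), and among those higher it had the lowest level for 724 of 4076 (17.8%).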
